A study of Mus musculus with 6 samples.

Results

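The genes described here make and control the enzyme that transcribes ribosomal DNA. They are the RNA polymerase I subunits Polr1a, Polr1b and Polr1c, the initiation factors Rrn3, Taf1b, Taf1c and Ubtf, and the nucleolar proteins Fbl, Ncl and Npm1. Each of the 10 genes was chosen by name, and every probe set that the probe gene table pairs with 1 of these symbols alone was taken. This gave 22 of the 45037 probe sets on the arrays. After a filter on low signals 18 of the 22 remained, of 27408 kept in all, and all 10 genes kept at least 1.

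RNA polymerase I transcribes only the repeated ribosomal RNA genes, in the nucleolus, and its transcript is cut into the large RNAs of both ribosomal subunits. UBF, the product of Ubtf, coats the active repeats, the SL1 complex with Taf1b and Taf1c marks the promoter, and Rrn3 (TIF-IA) joins the polymerase to SL1 when growth signals permit. PHF8 is a histone demethylase that has been found at ribosomal DNA repeats in cultured cells, where it helps their transcription, so the question was whether the mRNAs of this machinery differed in hippocampus without Phf8.

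Hippocampus of 3 wild-type (WT) and 3 Phf8 knockout (KO) mouse samples was hybridised to Affymetrix arrays, 1 array per sample, with values deposited as log2 MAS5 signals. Both groups are labelled C57BL/6 and 10 weeks of age, and the methods describe KO males with a germline deletion inside the X-linked Phf8 gene, made with EIIa-Cre on another strain background and then backcrossed to C57BL/6 J, beside WT littermates. The deletion is therefore in all cells, not in neurons alone, and the methods do not settle whether an array holds the hippocampus of 1 mouse or of several. Arrays measured polyadenylated mRNAs, and none of the 5 ribosomal RNA genes looked for is in the probe gene table, so the product of the polymerase itself is not analysed here.

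In no member did the KO differ from WT past the test (limma, smallest adjusted p = 0.78), beside 6 of all kept probe sets, or 0.0219%. By the brightest probe set of each gene, Polr1a, Polr1b, Polr1c, Taf1c and Fbl were on average higher in KO, Polr1a the most at 1.505-fold, and Rrn3, Taf1b, Ubtf, Ncl and Npm1 were on average lower. Without KO replicate 3 the Polr1b difference was 0.04 and that of Fbl turned to -0.06. Of the 18 kept probe sets 9 were higher and 9 lower, where 48.1% of all kept ones were higher. At an unadjusted p under 0.05, 1 of the 18 passed, or 5.56%, where 6.18% of all kept probe sets did. The KO and WT arrays did not overlap at 5 of the 18, 2 higher and 3 lower in KO, or 27.8%, where 15.2% of all kept probe sets did not (7.37% higher and 7.83% lower). These p-values measure the spread between samples, and 3 arrays per group limit the precision. In bulk tissue fewer cells of a type and less RNA per cell cannot be told apart.

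**Figure D1:**
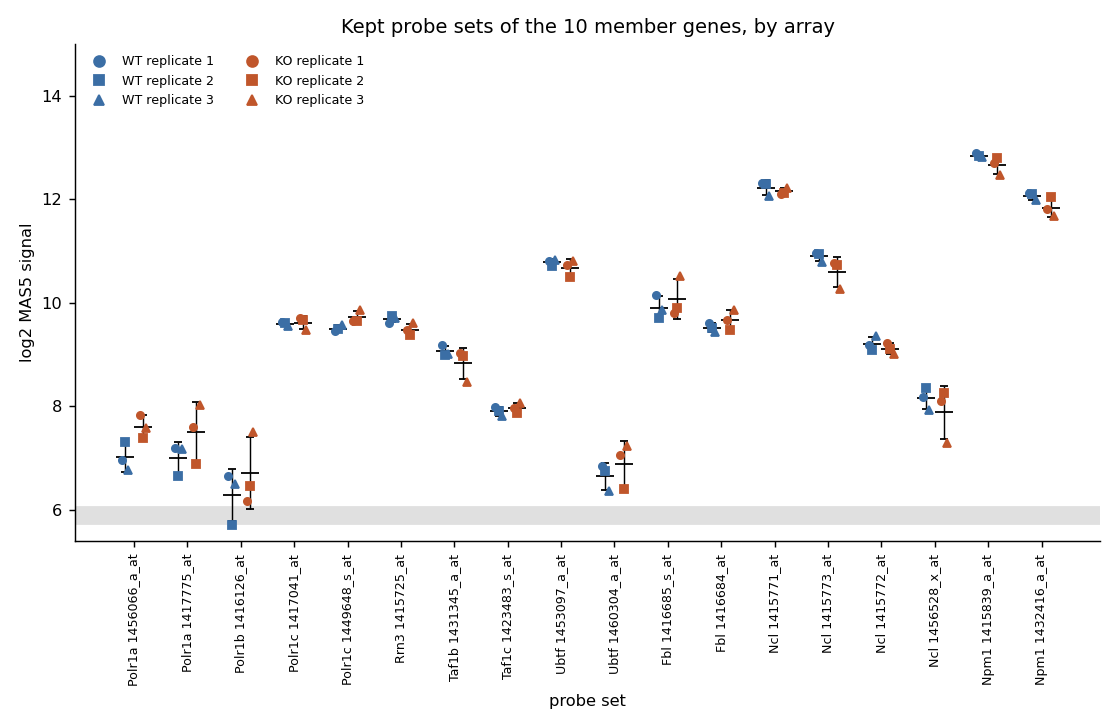
Log2 MAS5 signal (y axis) of each of the 18 kept member probe sets (x axis) on each array, with WT and KO in different colours a marker shape for each replicate, black bars for the mean and SD of 3 arrays, and a grey band for the range of the filter level over arrays. The groups overlap at 13 of the 18, and the heights of different probe sets cannot be compared.

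Before the members, the deleted gene and the arrays were checked. Phf8 was measured by 1 kept probe set (1460398_at), whose log2 signals were 9.90, 9.66 and 9.73 on the WT arrays and 8.23, 8.55 and 7.99 on the KO arrays. All KO arrays were below all WT arrays, with a difference of -1.51 (SE 0.18, limma adjusted p = 0.12), and the probe set's place relative to the deleted exons is not given in the sources used here. Without KO replicate 3 the difference was -1.37 with an adjusted p of 0.0085. KO replicate 3 stood apart: its correlations with the other arrays over kept probe sets were 0.899 to 0.925, against 0.968 to 0.985 among the other 5. Of the 8 thalamus and habenula markers 6 were kept, all 6 higher in KO on average, and the log2 of their summed signal was 11.77 to 12.01 in WT, 12.39 and 12.25 on the first and second KO arrays and 14.81 on KO replicate 3. Of 9 pyramidal cell markers 7 were lower in KO on average, with summed log2 signals of 14.85 to 14.94 in WT and 13.95 to 14.83 in KO, the lowest on KO replicate 3. By these sums the third KO array thus carried more thalamic and less pyramidal cell signal than any other array. The pyramidal list split on it, however. Wfs1, Bok and Grik4 were highest of all arrays there, and the other markers of that list were lowest. Of 6 dentate granule cell markers 5 were lower, with sums of 13.35 to 13.62 in WT and 13.22 to 13.40 in KO. Ependymal markers were higher in 6 of 6, with sums of 10.15 to 10.81 and 10.74 to 11.93. In these 2 lists the ranges of the groups overlapped. Choroid plexus markers were lower in 5 of 6, with sums of 14.84 to 15.01 and 14.04 to 15.02, but without KO replicate 3 they were higher in 5 of 6. Meningeal markers were higher in 4 of the 5 kept of 6 listed, with sums of 11.12 to 11.55 and 11.23 to 12.49. Red blood cell markers were lower in all 4 kept of 5 listed, with sums of 10.83 to 11.02 and 6.91 to 7.87. Every KO sum was below every WT sum, but Hba-a2 by itself overlapped (WT 6.13 to 6.34, KO 5.52 to 6.25). The second Hbb-b2 probe set gave a difference of 0.11. The median difference was 0.05 over astrocyte, 0.21 over oligodendrocyte, -0.01 over microglia and 0.02 over endothelial markers. Leaving out KO replicate 3 moved the median difference from 1.13 to 0.25 for thalamus, from -0.43 to -0.11 for pyramidal cell, from -0.39 to -0.18 for dentate, from 0.80 to 0.40 for ependymal, from -0.32 to 0.72 for choroid plexus, from 0.46 to 0.99 for meningeal and from 0.21 to 0.05 for oligodendrocyte markers. The part of these tissue differences in the results below was not tested, and each member is therefore also given without KO replicate 3.

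Polr1a encodes the largest subunit of RNA polymerase I, which forms most of the catalytic cleft. At probe set 1456066_a_at its log2 signals were 6.96, 7.32 and 6.77 on the WT arrays and 7.84, 7.40 and 7.58 on the KO arrays. The lowest KO array lay 0.08 above the highest WT array, so the groups did not overlap, and the highest KO array was not the one that stood apart. The means were 7.02 ± 0.28 and 7.61 ± 0.22 (SD, n = 3 each), and KO minus WT was 0.59 (SE 0.22, 95% interval 0.06 to 1.12), or 1.505-fold (1.04 to 2.17). This was the only member with an unadjusted p under 0.05 (limma, adjusted p = 0.78) and the only one to reach 1.5-fold, which 7.66% of all kept probe sets did in either direction. It fell below 1.5-fold after quantile normalization or median centring. Without KO replicate 3 the difference was 0.60 (adjusted p = 0.35). A second kept Polr1a probe set (1417775_at) gave 7.19, 6.66 and 7.17 in WT and 7.60, 6.88 and 8.04 in KO. Here KO replicate 2 fell inside the WT range, and the difference of 0.50 (SE 0.33, limma adjusted p = 0.79) was 0.23 without KO replicate 3. The other 3 Polr1a probe sets were below the filter and ran from -1.26 to 6.77 over the 6 arrays.

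Because Polr1a had the smallest p among the members, its promoter is shown, the 250 bases before the RefSeq start on GRCm38.p6, chr6:71908803-71909052, plus strand, 5′ to 3′ with the CCAAT motif in capitals.
Polr1a: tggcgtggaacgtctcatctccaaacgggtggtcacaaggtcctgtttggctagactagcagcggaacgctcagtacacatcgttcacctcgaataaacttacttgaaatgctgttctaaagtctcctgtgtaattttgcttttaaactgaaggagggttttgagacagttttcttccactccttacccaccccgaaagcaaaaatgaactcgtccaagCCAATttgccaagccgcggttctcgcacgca
It holds 13 CpG, against a median of 6 (quartiles 2 and 16) over 32841 RefSeq promoters, and 33.9% of those promoters hold CCAAT on either strand. A match of letters is a description and not a bound site.

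Polr1b encodes the second largest subunit, the partner of Polr1a in the catalytic core. Its only probe set (1416126_at) was dim, above the filter level on 5 of 6 arrays, with log2 signals of 6.65, 5.72 and 6.50 in WT and 6.18, 6.47 and 7.51 in KO. The higher KO mean rested on KO replicate 3: the difference of 0.43 (SE 0.42, limma adjusted p = 0.83) was 0.04 without that array.

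Polr1c encodes a subunit shared with RNA polymerase III that helps the large subunits assemble. Probe set 1449648_s_at gave 9.45, 9.49 and 9.57 in WT and 9.66, 9.66 and 9.86 in KO, so all KO arrays were above all WT arrays. The difference was 0.22 (SE 0.13, 95% interval -0.08 to 0.52, limma adjusted p = 0.79), and 0.15 without KO replicate 3. At the other Polr1c probe set (1417041_at) the arrays read 9.62, 9.62 and 9.56 in WT and 9.70, 9.67 and 9.47 in KO. Here the difference was 0.01 (SE 0.13), or 0.08 without KO replicate 3, with KO replicate 3 lowest of all 6. The probe sets of this gene thus disagreed, and the suffix _s_at marks a set whose probes can match more than 1 transcript family. Fbl 1416685_s_at and Taf1c 1423483_s_at carry this suffix too. The suffix of Ncl 1456528_x_at marks probes open to cross-hybridisation.

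Rrn3 (TIF-IA) is the factor through which nutrient and growth signals switch polymerase I initiation on and off. Its probe set (1415725_at) gave log2 signals of 9.62, 9.75 and 9.70 in WT and 9.48, 9.37 and 9.61 in KO. All KO arrays were below all WT arrays, KO replicate 3 by only 0.01. KO minus WT was -0.21 (SE 0.13, 95% interval -0.51 to 0.10), or 0.867-fold, with a limma adjusted p of 0.79. Leaving out KO replicate 3 gave -0.27 with an adjusted p of 0.37, and in that fit Rrn3 and Polr1a were the 2 members at an unadjusted p under 0.05.

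The promoter of Rrn3 (GRCm38.p6, chr16:13780449-13780698, plus strand) and that of Polr1c (chr17:46248046-46248295, minus strand) are shown beside that of Polr1a because these 3 genes held the subunit and initiation factor probe sets whose groups did not overlap. Capitals mark the E-box CACGTG in Rrn3, and in Polr1c the GC box GGGCGG, here on the opposite strand as CCGCCC, and the ETS core CCGGAAG.
Rrn3: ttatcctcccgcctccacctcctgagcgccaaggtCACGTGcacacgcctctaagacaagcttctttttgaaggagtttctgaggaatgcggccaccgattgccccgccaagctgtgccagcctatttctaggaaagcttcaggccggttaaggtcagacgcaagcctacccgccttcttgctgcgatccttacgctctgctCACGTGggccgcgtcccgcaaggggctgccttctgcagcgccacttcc
Polr1c: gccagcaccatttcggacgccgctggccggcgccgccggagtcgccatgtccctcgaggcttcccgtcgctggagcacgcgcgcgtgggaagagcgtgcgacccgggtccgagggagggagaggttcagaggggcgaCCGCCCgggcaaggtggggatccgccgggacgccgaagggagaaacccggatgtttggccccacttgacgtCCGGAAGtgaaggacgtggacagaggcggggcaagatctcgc
Rrn3 held 2 E-boxes and was the only one of the 14 member promoters with any, where 6.02% of all promoters have at least 1. The 14 come from 8 genes, with 6 starts of Ubtf and 2 of Taf1c. A GC box was in 9 of the 14 and in 32.7% of all promoters, CCAAT in 4, and the ETS core in 2 and in 6.91%. The NRF1 motif (0.783% of all promoters), a palindromic element (0.39%) and the TATA box TATAAA (12.4%) were in none of the 14, which says only that these letters are not in these windows. All motifs were searched on both strands. The median number of CpG was 14.5 over the member promoters. Starts of the same gene are not independent, and Ubtf weighs most in these counts and in this median.

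Taf1b and Taf1c encode subunits of SL1, the complex that places the polymerase at the ribosomal DNA promoter. Taf1b (1431345_a_at) gave 9.188, 9.002 and 9.013 in WT and 9.032, 8.975 and 8.482 in KO. KO replicate 3 was the lowest array, and the difference of -0.24 (SE 0.18, limma adjusted p = 0.80) was -0.06 without it. Taf1c (1423483_s_at) gave 7.998, 7.904 and 7.823 in WT and 7.973, 7.870 and 8.071 in KO. These groups overlapped throughout, with a difference of 0.06 (SE 0.15, 95% interval -0.30 to 0.42, limma adjusted p = 0.94), or 0.014 without KO replicate 3.

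Ubtf encodes UBF, the HMG box protein that keeps active repeats open. Its bright probe set (1453097_a_at) gave 10.82, 10.72 and 10.83 in WT and 10.74, 10.49 and 10.80 in KO. The groups overlapped, with KO replicate 2 lowest and a difference of -0.11 (SE 0.12, 95% interval -0.40 to 0.18, limma adjusted p = 0.85), or -0.17 without KO replicate 3. A dimmer probe set (1460304_a_at) had the opposite sign, 0.24 (SE 0.29), with WT between 6.36 and 6.85 and KO between 6.40 and 7.23, and 0.08 without KO replicate 3.

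**Figure D2:**
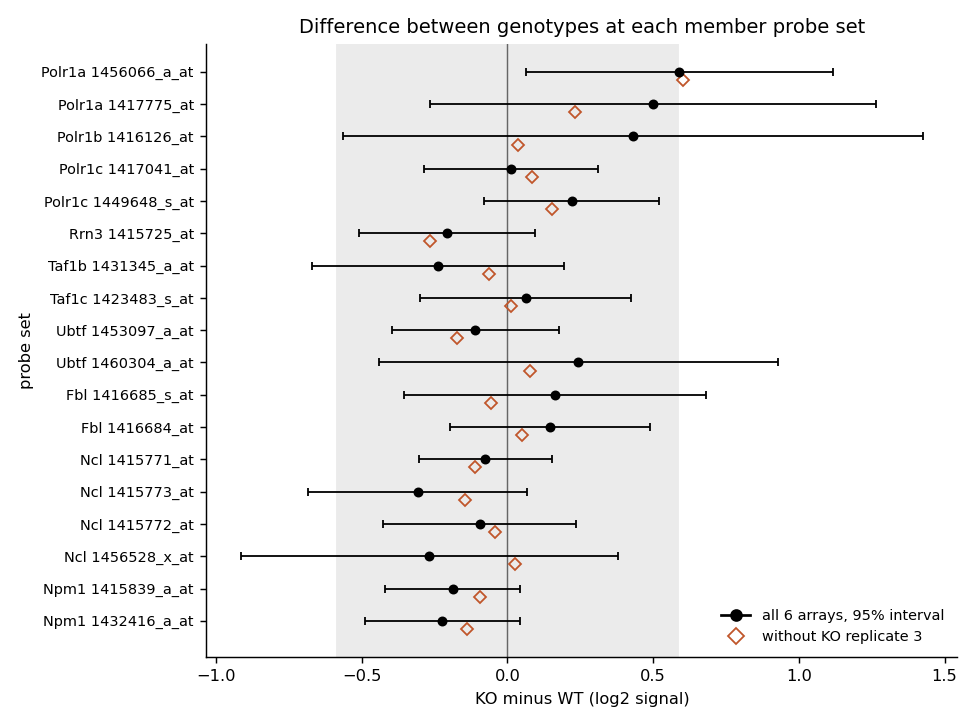
KO minus WT in log2 signal (x axis) at each kept member probe set (y axis), with filled points and bars for all 6 arrays and their 95% interval and open diamonds for the difference without KO replicate 3, and grey shading within 1.5-fold. The interval leaves out 0 only at the Polr1a probe set 1456066_a_at (0.06 to 1.12), and the Polr1b diamond lies at 0.04.

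Fbl encodes fibrillarin, the methyltransferase of box C/D small nucleolar ribonucleoproteins, which modifies ribosomal RNA. Probe set 1416685_s_at gave 10.16, 9.70 and 9.86 in WT and 9.80, 9.90 and 10.51 in KO. Only KO replicate 3 was above the WT range, and the difference of 0.16 (SE 0.22) turned to -0.06 without it. The second Fbl probe set (1416684_at) gave a difference of 0.15 (SE 0.15), with WT at 9.43 to 9.61 and KO at 9.47 to 9.86, and 0.05 without KO replicate 3.

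Ncl encodes nucleolin, an RNA-binding protein of the nucleolus that acts in ribosomal RNA transcription and early processing. Its 4 kept probe sets were all lower in KO on average. The brightest (1415771_at) gave 12.32, 12.29 and 12.07 in WT and 12.11, 12.12 and 12.22 in KO, overlapping groups with a difference of -0.08 (SE 0.10, 95% interval -0.30 to 0.15), or -0.11 without KO replicate 3. Probe set 1415773_at gave 10.96, 10.95 and 10.79 in WT and 10.78, 10.73 and 10.27 in KO. There the groups did not overlap, by 0.01 at the closest pair of arrays, and the difference of -0.31 (SE 0.16, limma adjusted p = 0.78) was -0.14 without KO replicate 3. The differences at 1415772_at and 1456528_x_at were -0.09 (SE 0.14) and -0.27 (SE 0.28), or -0.04 and 0.03 without KO replicate 3, and both pairs of groups overlapped. The fifth Ncl probe set (1442404_at) was below the filter, at 1.61 to 5.77.

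Npm1 encodes nucleophosmin, an abundant nucleolar chaperone of ribosome assembly. Its brighter probe set (1415839_a_at) gave 12.89, 12.83 and 12.81 in WT and 12.69, 12.80 and 12.47 in KO. Every KO array lay below every WT array, KO replicate 2 by 0.01, and the difference was -0.19 (SE 0.10, 95% interval -0.42 to 0.04, limma adjusted p = 0.78) or -0.09 without KO replicate 3. The second (1432416_a_at) gave 12.12, 12.10 and 11.98 in WT and 11.81, 12.04 and 11.67 in KO. It had a difference of -0.22 (SE 0.11, limma adjusted p = 0.78), or -0.14 without KO replicate 3, with KO replicate 2 inside the WT range. Only 2.92% of kept probe sets were brighter on average than the brighter Npm1 one, which orders signals and not transcript numbers.

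The members differed in how closely they bounded a change. The SE of the difference ran from 0.10 at Ncl to 0.42 at Polr1b, and the 95% interval lay within 1.5-fold in both directions at 10 of the 18 kept probe sets, against 35% of all kept ones. These 10 cover Fbl, Ncl, Npm1, Polr1c, Rrn3, Taf1c and Ubtf, whereas each kept probe set of Polr1a, Polr1b and Taf1b allowed a larger change. Other kept probe sets of Fbl, Ncl and Ubtf allowed one too. Their intervals reached 1.60-fold at Fbl 1416685_s_at, 0.53-fold at Ncl 1456528_x_at and 1.90-fold at Ubtf 1460304_a_at. The median SD over the WT arrays was 0.0997 for the members and 0.128 for all kept probe sets, and over the KO arrays 0.188 and 0.308. KO replicate 3 was the highest array at 7 and the lowest at 7 of the 18, where over all kept probe sets it was the highest or lowest at 68.9%.

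With each gene taken by its brightest kept probe set, 5 of 10 members were higher in KO (51.9% of all 12903 genes), 2 not overlapping upward (Polr1a, Polr1c) and 2 downward (Rrn3, Npm1), where 16.7% of all genes did not overlap in either direction. The median difference was -0.01, beside 0.01 over all genes. The member median on each array, relative to the WT mean, was 0.07, -0.01 and -0.04 in WT and -0.08, -0.04 and 0.09 in KO, and these ranges overlapped. On KO replicate 3 the same measure was 3.03 for the thalamus markers and -1.19 for the pyramidal cell markers.

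**Figure D3:**
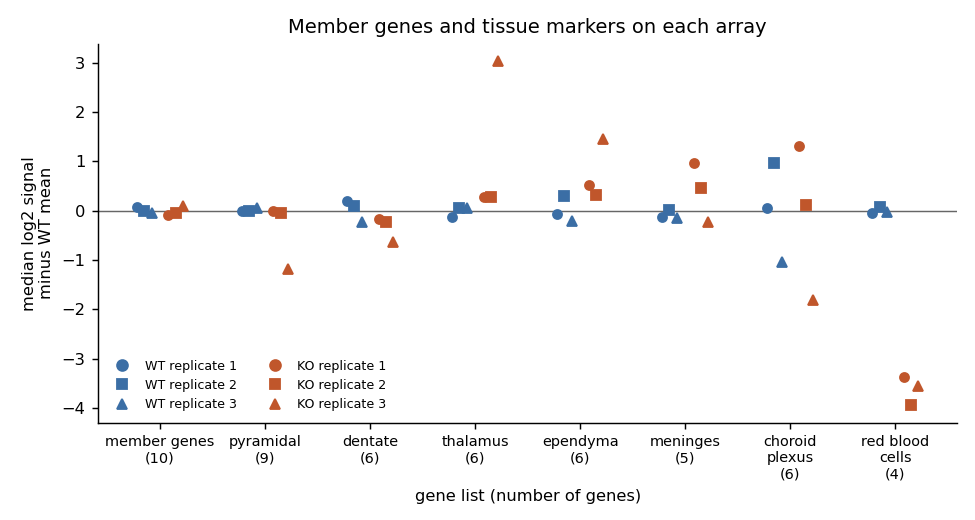
Median log2 signal relative to the WT mean (y axis) of the member genes and of marker lists of tissue parts (x axis, number of genes in brackets), a point for each array with colour for group and shape for replicate. The members lie between -0.08 and 0.09 on all 6 arrays, whereas thalamus markers reach 3.03 on KO replicate 3 and red blood cell markers lie between -3.95 and -3.38 on the KO arrays.

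The rest of ribosome production was described from 10 gene lists with 170 genes measured of the 215 they list. None passed the test (limma, smallest adjusted p = 0.73), where 0.0233% of all genes did. Of the 170, 93 were higher and 77 lower on average, where 51.9% of all genes were higher. An unadjusted p under 0.05 was found for 9, or 5.29%, where 6.76% of all genes had one. The groups did not overlap at 17 higher and 9 lower genes, or 15.3%, where 16.7% of all genes did not overlap. List medians ran from -0.08 to 0.16.

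Among the other subunits of polymerase I, 5 of 8 were higher on average, and the leading genes were those of the heterodimer that docks on the polymerase and helps it initiate and elongate. Cd3eap, in this heterodimer, gave 7.321, 7.174 and 6.996 in WT and 7.689, 7.504 and 8.092 in KO, a difference of 0.60 (SE 0.22, limma adjusted p = 0.78) and 0.43 without KO replicate 3. Polr1e, its partner, gave 6.68, 7.23 and 7.17 in WT and 7.58, 7.56 and 7.52 in KO, a difference of 0.53 (SE 0.21, limma adjusted p = 0.78) and 0.55 without KO replicate 3. In both genes all KO arrays were above all WT arrays, as at Polr1a 1456066_a_at but not at its second kept probe set. The second Polr1e probe set gave 0.14. The Polr1e probe set with the larger difference (1435057_x_at) has the suffix _x_at, which marks probes open to cross-hybridisation. Twistnb, the next, overlapped at 0.16 (SE 0.13), or 0.09 without KO replicate 3. Polymerase II subunits were higher in 6 of 7, Polr2b by 0.17, Polr2d by 0.15 without overlap and Polr2i by 0.12. Polymerase III subunits were lower in 7 of 10. The lowest of these was Polr3g at -0.68 (SE 0.28, limma adjusted p = 0.78), whose KO arrays read 6.81, 6.37 and 5.89 below WT at 6.95 to 7.07, followed by Polr3b at -0.31, with Polr3c at 0.35 in the other direction. Without KO replicate 3 Polr3g was at -0.44 and Polr3c at 0.11. The second Polr3b probe set gave 0.08.

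SL1 and termination factors were split, 2 higher and 2 lower, with Ttf1 at 0.27, Taf1d at 0.08 and Tbp at -0.09, all overlapping. Without KO replicate 3 Ttf1 turned to -0.14 and Tbp to 0.11. The other Taf1d probe sets ran from -0.59 to 0.14. Chromatin factors of the ribosomal DNA repeats were higher in 5 and lower in 6 of 11. Dnmt1, the maintenance DNA methyltransferase, was 0.22 higher without overlap (SE 0.13, limma adjusted p = 0.79), the deacetylase Hdac1 was at -0.29, of which -0.08 remained without KO replicate 3, and Phf2, a relative of Phf8, was at -0.17 with overlap.

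Proteins of the small nucleolar ribonucleoproteins, the partners of fibrillarin and of the pseudouridine synthase Dkc1, were higher in 6 of 6, with a median of 0.16. None had an unadjusted p under 0.05. Gar1 gave 0.23 (SE 0.13) and Dkc1 0.17 (SE 0.12), with the other Dkc1 probe sets at -0.11 to 0.08. Nop58, without overlap, gave 8.81, 8.78 and 8.80 in WT and 8.86, 8.82 and 9.87 in KO, so that its 0.39 was 0.05 without KO replicate 3. The other nucleolar proteins were 3 higher and 3 lower, with Nop53 at -0.21 without overlap, Tcof1 (treacle, which works with UBF) at 0.40 and Gnl3 at 0.17, both overlapping.

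Assembly factors of the small subunit were lower in 24 of 38, with a median of -0.03 that was 0.02 without KO replicate 3. The genes with the smallest p were higher. Bms1 was up 0.36 (SE 0.10, limma adjusted p = 0.77, without overlap), Nob1 0.38 and Nol6 0.34, with the second Nol6 probe set at -0.06. Those of the large subunit were higher in 22 of 37, with a median of 0.06 that was -0.0030 without KO replicate 3. The smallest p-values were those of Noc3l at -0.40 (SE 0.15), Las1l at 0.35, or 0.22 without KO replicate 3, and Rpf2 at 0.30. The other Rpf2 probe sets ran from -0.43 to 0.17. Ribosomal protein mRNAs were higher in 27 of the 43 measured of 79, with a median of 0.03 that was -0.0068 without KO replicate 3. Rpl37 gave 10.72, 10.77 and 10.58 in WT and 11.18, 11.16 and 11.06 in KO, a difference of 0.45 (SE 0.11, limma adjusted p = 0.73). Its arrays did not overlap and 0.48 remained without KO replicate 3, but its probe set (1438291_x_at) is of the kind marked as open to cross-hybridisation, and ribosomal protein genes have many near-identical pseudogenes. Rps28 was at -0.19 (SE 0.06) and Rpl35 at 0.24 (SE 0.08), both without overlap.

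**Figure D4:**
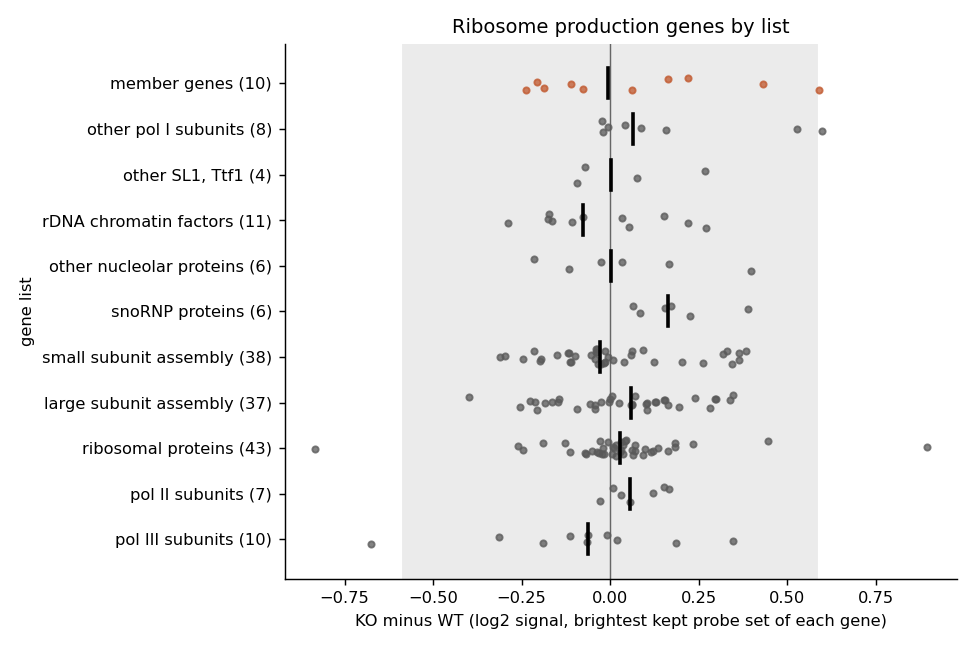
KO minus WT in log2 signal (x axis) of each gene, by its brightest kept probe set, in the member list and the 10 lists of ribosome production (y axis), a point for each gene, a line at each list's median and grey shading within 1.5-fold. The list medians lie between -0.08 and 0.16, and the points farthest out are Rpl27a at -0.83, or -0.29 without KO replicate 3, and Rpl39 at 0.89, both named after their values were seen. Rpl39 read 5.54 on WT replicate 1, against 7.76 and 7.70 on the other WT arrays and 7.62 to 8.25 in KO, so its groups overlap.

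The profile of Polr1a over the 6 arrays was compared with 12902 other genes by the root mean square distance of log2 signals, each centred on its own mean. The nearest were Islr (distance 0.0659), an extracellular protein with leucine-rich repeats, Csrp2 (0.0748), a LIM protein of mesenchymal cells, and Thbs2 (0.100), a matrix thrombospondin. Islr gave 7.79, 8.11 and 7.53 in WT and 8.50, 8.08 and 8.40 in KO. In each of these profiles, as in Polr1a, WT replicate 2 was the highest WT array and KO replicate 2 the lowest KO array. These genes were picked for their likeness to Polr1a, so the shared order follows from the choice. Of the 5 kept meningeal markers only Col1a2, a collagen, had this order, at 7.58, 8.34 and 7.75 in WT and 9.30, 8.86 and 9.35 in KO, whereas Dcn, Igf2 and Lum were lowest among the KO arrays on replicate 3 and Slc6a13 on replicate 1. The second Polr1a probe set did not follow this order, with WT replicate 2 lowest of the WT arrays. The part of meningeal tissue in the Polr1a difference was not tested.

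**Figure D5:**
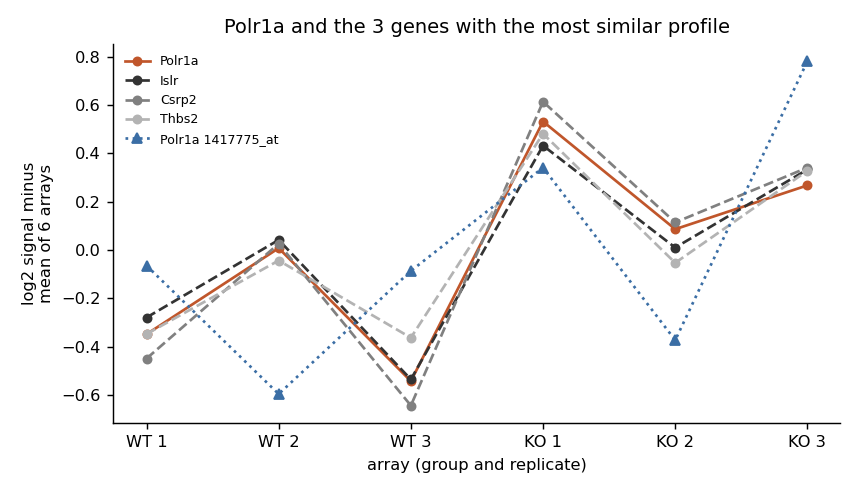
Log2 signal minus the mean of the 6 arrays (y axis) on each array (x axis) for Polr1a at both kept probe sets and for Islr, Csrp2 and Thbs2, where lines only join the points of a probe set and the arrays have no order. The 3 genes and Polr1a 1456066_a_at lie within a root mean square distance of 0.100 log2 units, and Polr1a 1417775_at departs from them.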

How the data were processed

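The authors deposited log2 MAS5 signals per probe set for all 6 arrays, and MAS5 and affy are the tools named, with no version, in the submitters' notes. The paper's methods add GeneSpring and a filter on Absent calls. With 2% of linear signals trimmed from either tail every array averages 497 to 498, a scaling that hides any change of total mRNA. Genes were named from the probe gene table only. The filter asked for a value above an array's 40th percentile (5.73 to 6.05) on at least 3 of 6 arrays. The genotypes were compared by limma 3.58.1 under R 4.3.3 (lmFit, eBayes with trend) with Benjamini-Hochberg adjustment across every kept probe set. The fit was tested on simulated data with independent noise of equal spread on all arrays. That test held no array standing apart, as KO replicate 3 does here, so it cannot show how the fit handles one.

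The members, lists and tests were chosen with earlier results of these data known. Named are all member probe sets, Phf8, the 3 genes of smallest p in each list, the 3 genes nearest to Polr1a, and markers. Promoters came from RefSeq (GRCm38.p6), which held 8 of the 10 members. Alternatives were other normalizations, filters, 16 signal units added before taking log2, variance models without trend or robust, array weights, a fit over genes, the mean of kept probe sets, the replicate number as a block, and leaving out each array.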

Additional observations from a re-analysis of the deposited data

How the results depend on the processing

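No member probe set passed an adjusted p of 0.05 under any alternative in use, array weights estimated gene by gene included. Phf8 passed with array weights (-1.52) and without KO replicate 3, and leaving out 1 array gave -1.65 to -1.37. Member probe sets at 1.5-fold numbered 1, but 0 with quantile normalization, median centring, the 60th percentile filter or the offset, 2 with the 20th percentile filter, 4 with no filter, and 0 to 2 without 1 array. Member genes higher numbered 5 in the main fit and 4 without KO replicate 3. The 60th percentile filter and array weights gave 3, with median differences of -0.093 and -0.079, and the other alternatives gave 4 to 6. The mean of kept probe sets gave a median of 0.065. Signs turned for Fbl 1416685_s_at (array weights -0.10, without 1 array -0.057 to 0.30), Ncl 1415772_at (array weights 0.0050), Ncl 1456528_x_at (without 1 array -0.45 to 0.026), Polr1b (array weights -0.064) and Polr1c 1417041_at (median centring -0.018, without 1 array -0.030 to 0.084). Genes of the lists that passed numbered 2 with array weights (Rps28, Rpl37), otherwise 0. The 60th percentile filter kept no probe set of Polr1a or Polr1b. It left 6 of the 8 other polymerase I subunits, with a median difference of 0.019 against 0.065 in the main fit. The cause of the shifts under the other alternatives was not tested. A restricted maximum likelihood estimate of the array weights, tried first, did not converge. It put a weight of 96.0 on KO replicate 1, called 7432 of 27408 probe sets and 5 of the members, and was replaced by gene-by-gene weights after the data were seen. Over all probe sets 6 passed, 307 with array weights, 64 without KO replicate 3 and 0 without the trend. Without KO replicate 1 or 2 it was 2, and without any 1 WT array 0. WT and KO share replicate numbers. After each group's mean was subtracted, correlations of same-numbered arrays were -0.02, 0.07 and 0.10, and those of other pairs -0.11 to 0.11. With so few arrays this cannot settle whether the numbers pair the samples. With the replicate number as a block 2 probe sets passed in all and 0 members (smallest adjusted p = 0.85).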
